A study of Mus musculus with 17 samples.

Results

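Clathrin-coated vesicles carry cargo in from the cell surface and out of the trans-Golgi network. Their coat is built of triskelia, each made of clathrin heavy chains, encoded by Cltc, with bound light chains, encoded by Clta and Cltb. Adaptors such as Picalm link clathrin to the membrane and its cargo, the BAR domain proteins Amph (amphiphysin) and Bin1 (amphiphysin 2) bind curved membrane and recruit dynamin, and the dynamins Dnm1, Dnm2 and Dnm3 are GTPases that cut the neck of the budding vesicle. In brain, Dnm1 and Amph are best known from the recycling of synaptic vesicles, while Dnm2 is the dynamin found in most tissues. The light chains and Bin1 are classic examples of genes whose neuronal transcripts carry extra exons.

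These 9 genes were taken by symbol from the 22462 genes deposited for polyA RNA sequencing of mouse cerebral cortex, and with them 14 of the 28407 isoforms listed in every file. Of the 9 genes, 3 had more than 1 isoform in the files (Clta with 4, Bin1 with 2 and Dnm3 with 2), and for the other 6 no isoform share could be computed. The 17 libraries came from mice of the strain labelled FVN/Swiss and fell into 8 groups without treatment: neurons, astrocytes, microglia, endothelial cells and, of the oligodendrocyte lineage, precursor cells, newly formed and myelinating oligodendrocytes had 2 libraries each, and whole cortex had 3. The labels give neither ages, nor sort markers, nor the animals behind each library, so the p-values below measure the spread between libraries, which may in part be technical.

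All values are FPKM (fragments mapped to a transcript, scaled by its length and by the total mapped in the library) as the authors deposited them, with values under 0.1 listed as 0.1. FPKM summed to between 205621 and 389838 per library, and the read depth behind a value is unknown. Each of the 7 marker lists of the purified types had its highest summed level in its own type. Neuron markers stood at a median of 7.61% and 9.66% of their neuron level in the precursor libraries, at 1.88% and 5.92% in the myelinating libraries and at no more than 2.43% in the other purified glial and endothelial libraries. The precursor libraries also held fibroblast markers at a summed 68.0 and 119 FPKM, against 7.38 FPKM or less in the other purified types. They held microglia markers at a median of 7.66% and 3.21% of the microglia level, against 1.22% or less in the other purified types. Astrocyte markers stood at a median of 3.41% and 6.43% of the astrocyte level in neurons and at 5.84% and 4.66% in precursors. Precursor markers stood at 3.33% and 5.36% of the precursor level in neurons and at 22.1% and 20.1% in newly formed oligodendrocytes. Within the neuron list Slc17a7, a marker of excitatory neurons, was at 20.4 and 9.99 FPKM in the neuron libraries, below 1 precursor library (38.9), 1 myelinating library (39.1), 1 microglia library (31.4) and whole cortex (87.3 to 107). The inhibitory markers Gad1 (75.4 and 58.5 FPKM) and Slc32a1 (59.2 and 38.0) were higher in the neuron libraries than in whole cortex (at most 23.0 and 18.7). These are bulk samples, in which fewer cells of a type and less RNA per cell cannot be told apart.

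Clta was spliced differently in neurons from each of the other 6 purified types. Its 4 isoforms differ at a pair of exons in the coding part, of 54 and 36 bases, which add 18 and 12 codons and lie at chr4:44030215-44030268 and chr4:44031400-44031435 on the plus strand of GRCm38. NM_001080384 and NM_001080386 lack both exons. Apart from their outer ends, they differ from each other by 6 bases at the end of exon 1. NM_016760 has the 54-base exon alone, and NM_001080385 has both. The mRNA across this junction is printed because it carries the difference, with the alternative exons in capitals and 15 bases of the flanking exons on each side in lower case. It was read from GRCm38 (window chr4:44025546-44032415) through the GENCODE M21 transcripts matched to the RefSeq identifiers, whereas the submitters' processing notes name mm9.
Clta NM_001080384: aaaggcaaacaacagggcagcagaagaagc
Clta NM_016760: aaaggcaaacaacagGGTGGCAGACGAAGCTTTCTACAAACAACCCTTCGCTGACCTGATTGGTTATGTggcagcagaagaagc
Clta NM_001080385: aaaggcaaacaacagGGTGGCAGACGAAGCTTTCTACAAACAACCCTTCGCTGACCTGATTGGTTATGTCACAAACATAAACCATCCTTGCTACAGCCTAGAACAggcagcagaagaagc

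In neurons the forms with the 54-base exon made up 92.7% ± 0.657 of Clta FPKM (SD, n = 2). In the other purified types they made up between 4.90% ± 0.0774 in microglia and 15.6% ± 0.990 in newly formed oligodendrocytes (SD, n = 2 each), with 13.03% in astrocytes, 14.1% in precursors, 13.9% in myelinating oligodendrocytes and 5.40% in endothelial cells. Whole cortex stood between, at 53.5% ± 3.47 (SD, n = 3), and no library of one of these 3 sets overlapped another set.

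The 36-base exon was seen with the 54-base exon only, since the files list no isoform with it alone. NM_001080385, with both exons, held 36.4% and 41.0% of Clta in the neuron libraries and 18.1%, 23.5% and 15.5% in whole cortex. In the other purified libraries it held between 0.445% and 8.93%. Among the transcripts with the 54-base exon, 39.1% and 44.5% also had the 36-base exon in neurons, a share that some glial libraries reached as well (33.8% and 47.5% in precursors, 34.2% and 54.9% in myelinating oligodendrocytes). In microglia that ratio was 36.7% in one library and 99.3% in the other. In the latter NM_016760 was listed at the lowest value, 0.1 FPKM, and NM_001080385 at 14.1 FPKM, the most in any purified library other than neurons.

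Against the mean of the other purified types, neurons had 46.3 percentage points more NM_016760, 35.2 points more NM_001080385 and 80.6 points less NM_001080384 (adjusted p = 3.52e-17 for the gene in limma's diffSplice test with Simes' method). NM_001080386 hardly took part, with shares between 4.27% and 9.37% in all 17 libraries. In FPKM, the forms without either exon stood at 9.09 ± 0.775 in neurons and at 261 ± 14.5 in microglia (SD, n = 2), while the forms with the 54-base exon stood at 115 ± 1.3 in neurons and at 13.5 ± 0.972 in microglia (SD, n = 2). Isoform use was called different at an adjusted p under 0.05, a share difference of at least 20 points and a mean gene level of at least 5 FPKM on both sides, and 28.7% of the genes so tested were called in neurons.

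The second light chain gene, Cltb, has an exon of the same length in the annotation, but its splicing could not be read here. The files hold 1 Cltb isoform, NM_028870, which lacks the exon at chr13:54597026-54597079 (GRCm38, minus strand) that the GENCODE transcript Cltb-201 contains. The 54-base exons of both genes were identical at 37 of 54 bases (68.5%) when aligned without gaps. The junction of Cltb is shown in the same way for comparison with that of Clta, from chr13:54594028-54598736.
Cltb NM_028870: caagatcaacaacagggcatcggaagaggc
Cltb-201: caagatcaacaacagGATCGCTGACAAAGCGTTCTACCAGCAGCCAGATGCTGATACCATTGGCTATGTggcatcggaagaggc

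Bin1 RNA in neurons was almost wholly of the isoform that was a minor one in the other purified types. NM_009668 carries 4 exons that NM_001083334 lacks, exons 7, 13, 14 and 15 of 93, 108, 24 and 108 bases, together 333 bases or 111 codons. NM_009668 made up 97.4% and 97.6% of Bin1 FPKM in the neuron libraries and 50.96%, 45.7% and 48.8% in whole cortex. In the oligodendrocyte lineage it stood at 12.3% ± 1.33 in precursors, 11.2% ± 0.741 in newly formed and 11.3% ± 1.18 in myelinating oligodendrocytes (SD, n = 2 each).

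It was rarer still in astrocytes at 4.31% and 4.94%, in endothelial cells at 1.45% and 3.98%, and in microglia at 0.823% and 0.874%. The neuron share exceeded the mean of the other purified types by 90.3 points (adjusted p = 1.09e-20, diffSplice). Every library of the oligodendrocyte lineage had a larger share of the longer form than any library of astrocytes, microglia or endothelial cells, although no pair of these types passed the limit of 20 points. Astrocytes did not pass the diffSplice test against precursors, newly formed or myelinating oligodendrocytes either (adjusted p = 0.875, 0.429 and 0.419). Nor did endothelial cells against newly formed and myelinating oligodendrocytes (0.159 and 0.164). Endothelial cells against precursors (0.0152) and microglia against each stage (highest adjusted p = 5.10e-11) passed it below the limit. NM_009668 was listed at 0.321 and 0.409 FPKM in astrocytes and at 0.190 and 0.535 FPKM in endothelial cells. The test works on log2(FPKM + 1), which compresses differences between values under 1 FPKM. For astrocytes and endothelial cells, a test that was not passed thus cannot show that the shares were alike. The files list no Bin1 isoform with only some of the 4 exons, so a transcript of that kind would have been divided between these models.

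**Figure D1:**
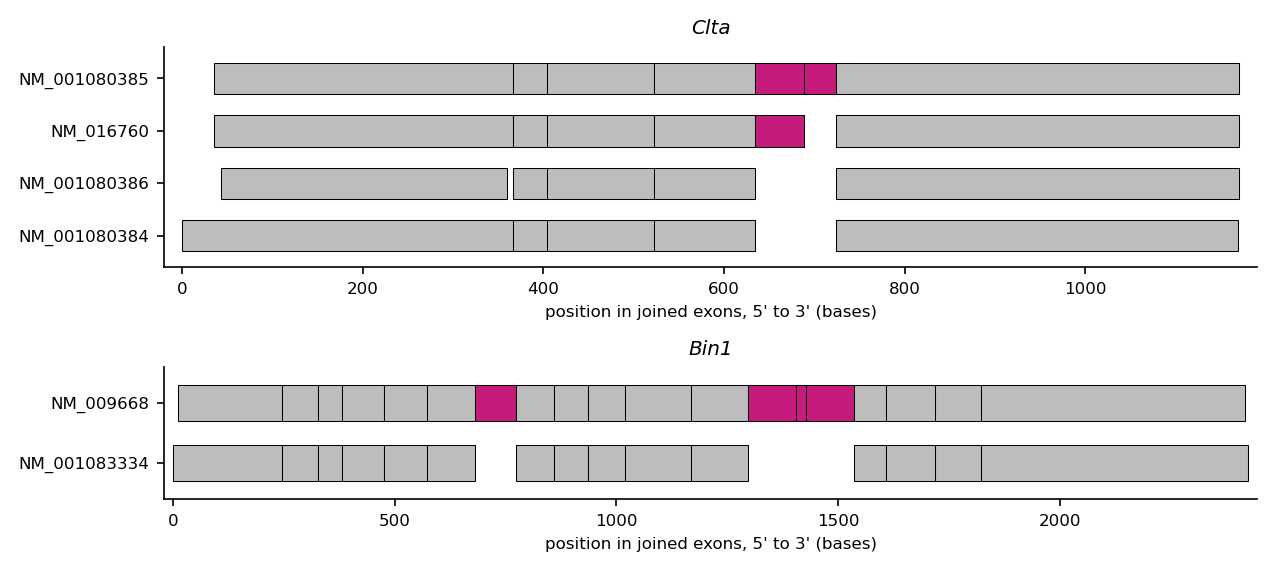
Exons of the Clta and Bin1 isoforms in the annotation, joined 5′ to 3′ with introns removed; the x axis is the position in bases, each box is an exon, and coloured boxes are the alternative exons. The alternative exons of Clta have 54 and 36 bases, and the 4 of Bin1 sum to 333 bases.

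Dnm3 changed isoform too. NM_001038619 made up 96.5% and 98.7% of Dnm3 FPKM in neurons and 88.4%, 85.6% and 85.2% in whole cortex. The share was 8.18% and 17.2% in myelinating oligodendrocytes and 15.1% and 18.2% in endothelial cells, where NM_172646 was the main form. In the earlier stages of the lineage the libraries disagreed widely, with 48.3% and 19.0% in precursors and 35.6% and 12.4% in newly formed oligodendrocytes.

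Neurons had 75.8 points more NM_001038619 than the average of those other types that had enough Dnm3. Astrocytes and microglia held under 5 FPKM of Dnm3, were left out of that average and were given no test result of their own. The diffSplice test of neurons (adjusted p = 7.34e-11) was made against the mean of all the other purified types, astrocytes and microglia included. Its p-value and the share difference thus belong to different sets of types. Both identifiers match the same GENCODE transcript, so the sequence that separates them is not described. The antisense gene Dnm3os, which overlaps Dnm3, was listed at 0.1 to 0.237 FPKM in all libraries.

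Over the 28 pairs of groups, 34 of the 71 tests of these 3 genes with enough FPKM were called, where 20.8% of all such tests were. Neurons against each purified type gave 16 calls in 16 tests (28.8% of all tests in those 6 pairs). The 15 pairs of purified types without neurons gave 0 calls in 36 tests (17.5% of all tests there). An adjusted p under 0.05 was reached in 12 of those 36 tests, each with shares that differed by less than the 20 points a call required, so smaller differences between these types passed the test. An unadjusted p under 0.05 occurred 15 times, with a difference of at least 20 points 1 time, and an F test per gene gave 0 calls.

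The largest share differences among those pairs were 12.2 points for Clta (newly formed oligodendrocytes against microglia), 11.4 points for Bin1 (precursors against microglia) and 20.97 points for Dnm3 (precursors against myelinating oligodendrocytes). The last had an adjusted p of 0.0813, and of 0.0375, which makes it a call, with the library number as a block in 4 types whose same-numbered libraries deviated together. Neurons and whole cortex differed in Clta and Bin1 use (14% of genes called), whereas the difference for Dnm3, 11.2 points at an adjusted p of 0.00128, stayed under the limit. The shares of the neuronal forms in precursors stood beside neuron markers at 7.61% and 9.66% of their neuron level in the same libraries. Microglia markers stood there at 7.66% and 3.21% of their microglia level. Microglia held 95.1% of Clta in the forms with neither exon and 99.2% of Bin1 in NM_001083334. The part of neuronal or microglial RNA in the precursor shares was not tested.

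**Figure D2:**
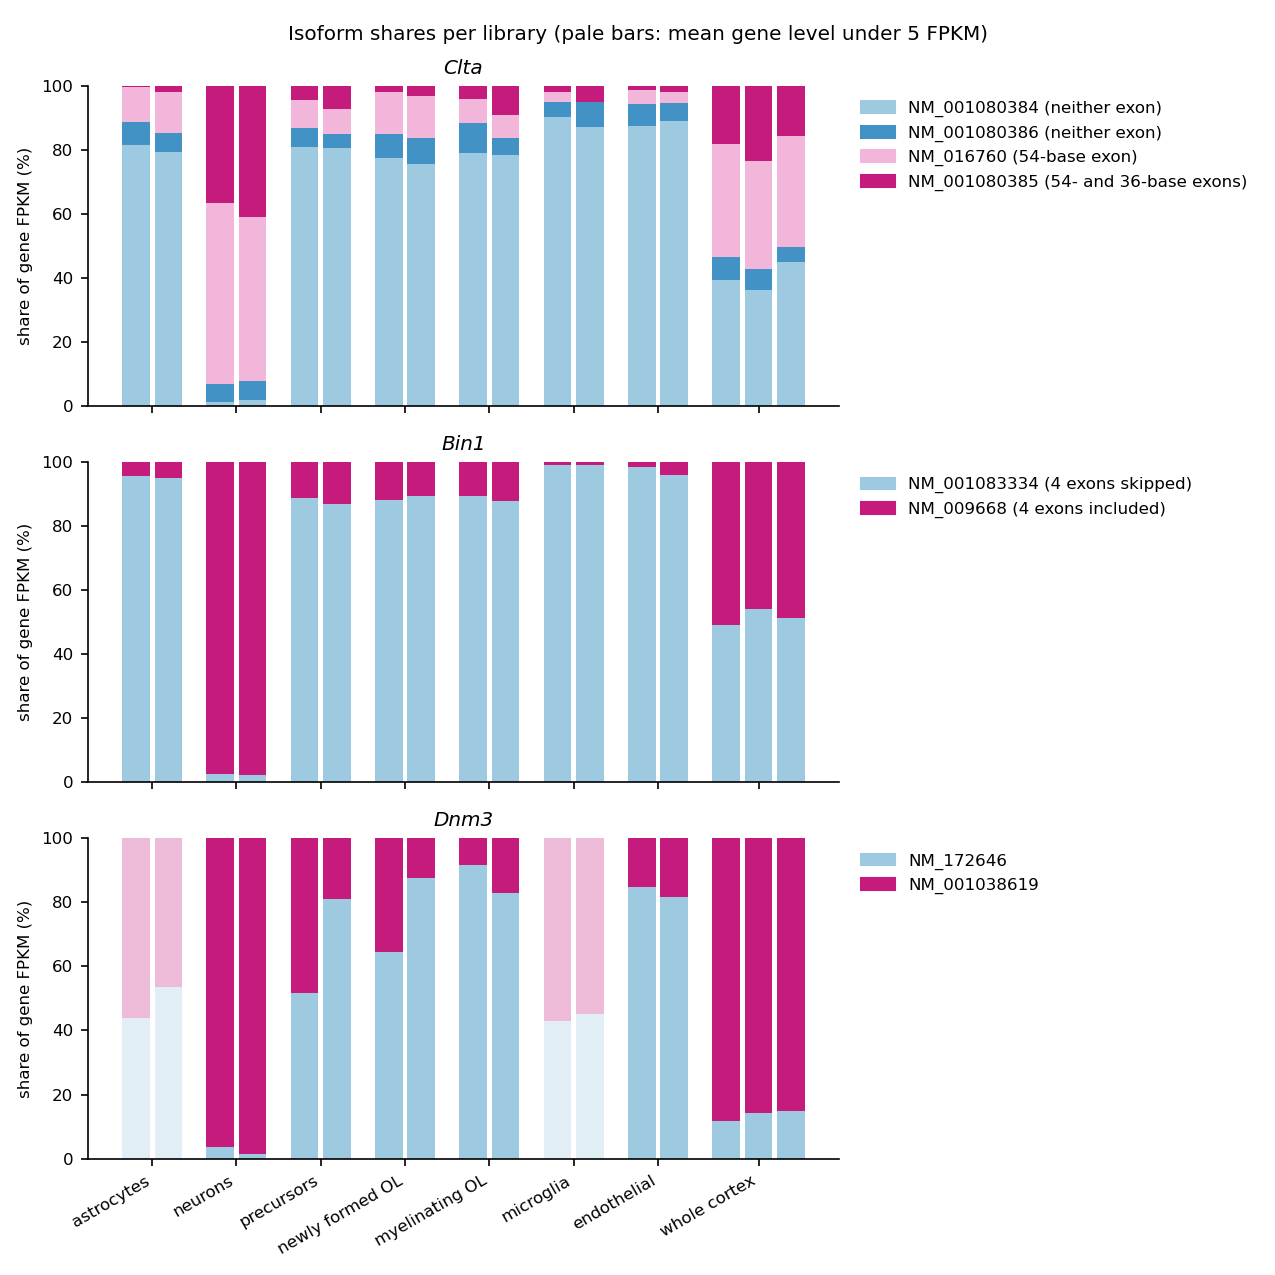
Share of each isoform in its gene's FPKM (y axis, percent) for Clta, Bin1 and Dnm3, with 1 bar per library and libraries grouped on the x axis (OL, oligodendrocytes); pale bars mark groups with a mean gene level under 5 FPKM. The 2 neuron libraries carry mostly the pink forms, whole cortex stands between for Clta and Bin1, and the other purified types carry mostly the blue forms wherever the level passed 5 FPKM.

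Gene levels followed other lines than isoform use. A level was called different at an adjusted p under 0.05 and an absolute log2 difference of at least 1 on the log2(FPKM + 1) scale, in limma over 14011 genes, which included all 9. Of the 252 comparisons of 9 genes in 28 pairs of groups, 126 were called (50%), against 38.1% over all genes and pairs. Dnm1 was called in 22 of its 28 pairs and Bin1 in 21, whereas Cltb and Cltc were called in 7 each.

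**Figure D3:**
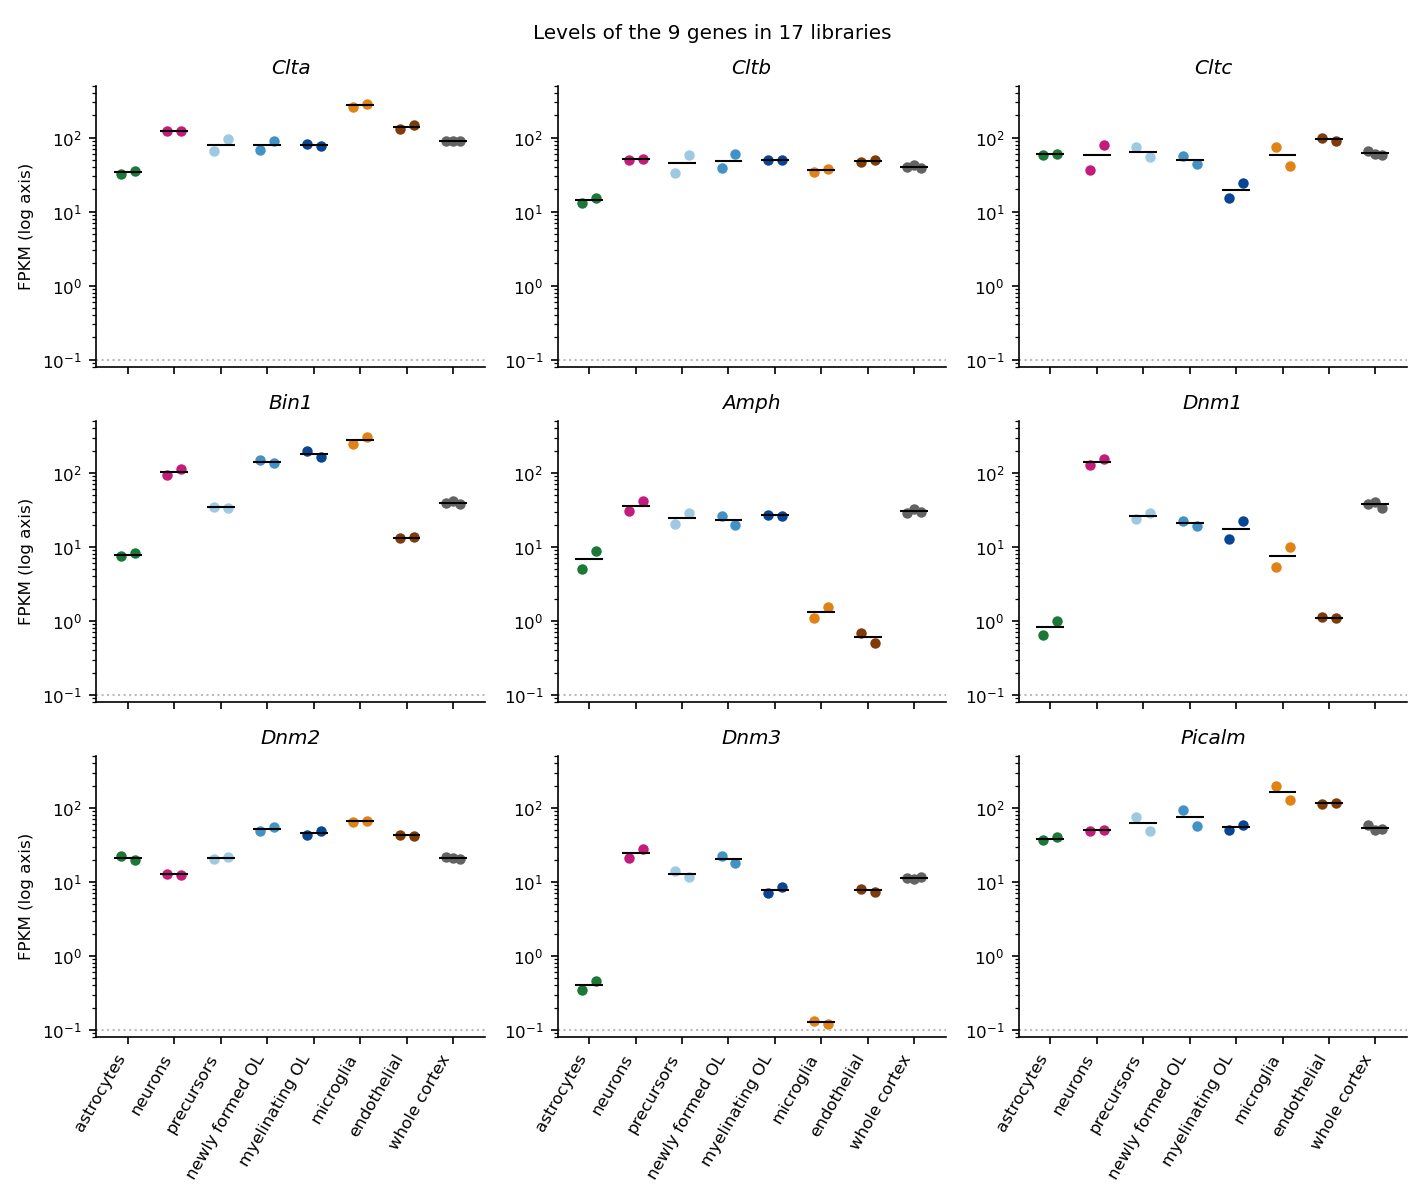
FPKM of the 9 genes in 17 libraries (y axis, log scale), by group on the x axis; points are libraries, horizontal bars group means, and the dotted line the lowest value listed, 0.1 FPKM. Dnm1 spans the range from 0.652 FPKM in an astrocyte library to 153 FPKM in a neuron library, while Cltb outside astrocytes stays between 33.8 and 59.4 FPKM.

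Cltc, the heavy chain that every clathrin coat needs, was highest in endothelial cells and lowest in myelinating oligodendrocytes. It was listed at 99.5 and 90.3 FPKM in endothelial cells, 58.0 and 60.8 in astrocytes, 75.2 and 54.1 in precursors, 55.9 and 44.1 in newly formed oligodendrocytes and 66.0, 59.9 and 59.3 in whole cortex. The neuron libraries (36.1 and 79.6 FPKM) and the microglia libraries (75.3 and 42.0 FPKM) were far apart from each other within their group. Myelinating oligodendrocytes, at 15.1 and 24.2 FPKM, lay below every other library.

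They were called lower than each of the other 7 groups and lower than the mean of the other purified types by 1.63 ± 0.26 on the log2 scale (SE; adjusted p = 6.33e-05). In myelinating oligodendrocytes 31% of all genes were called lower in that contrast and the median over all genes was −0.60. The other 21 pairs of groups were not called for Cltc, and endothelial cells, 0.99 ± 0.26 above the mean of the others (adjusted p = 0.00347), fell just short of the limit. Of those pairs, endothelial cells against newly formed oligodendrocytes (0.92 ± 0.34 higher, adjusted p = 0.0281) and against neurons (0.81 ± 0.34 higher, adjusted p = 0.0496) passed the test below the limit on the difference.

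Clta, the larger source of light chain RNA, was highest in microglia. The microglia libraries held 264 and 286 FPKM, the endothelial libraries 131 and 150, the neurons 124 and 124, and whole cortex 90.2, 90.5 and 91.0. The oligodendrocyte lineage lay together, with 67.1 and 94.6 FPKM in precursors, 67.7 and 89.4 in newly formed and 82.1 and 78.3 in myelinating oligodendrocytes. Astrocytes were lowest at 32.7 and 35.9 FPKM.

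Microglia exceeded the mean of the other purified types by 1.74 ± 0.14 on the log2 scale (SE; adjusted p = 7.49e-08), where 15.2% of all genes were called higher. They were called higher than 5 of the 6 other types, and their difference from endothelial cells was 0.97 ± 0.18 (adjusted p = 3.33e-04), under the limit of 1. Astrocytes were called lower than every other group, by 1.73 ± 0.14 against the mean of the others (SE; adjusted p = 8.01e-08), where 13.6% of all genes were called lower. None of the groups between endothelial cells and newly formed oligodendrocytes was called different from its neighbour in the order.

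Cltb, the other light chain, was nearly level across cells apart from astrocytes. Astrocytes held 12.9 and 15.5 FPKM, and the 15 other libraries ran from 33.8 FPKM in a precursor library to 59.4 FPKM in a newly formed oligodendrocyte library. Astrocytes were called lower than each of the other 7 groups (log2 difference from the mean of the other types −1.63 ± 0.18, adjusted p = 1.51e-06), and none of the other 21 pairs was called. The ratio of Clta to Cltb FPKM was 7.62 ± 0.0652 in microglia and between 1.60 ± 0.0259 in myelinating oligodendrocytes and 2.88 ± 0.131 in endothelial cells among the other purified types (SD, n = 2 each).

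Both light chains together, relative to the heavy chain, gave 0.786 and 0.846 in astrocytes, the 1 type with less light chain than heavy chain FPKM. The same ratio was 5.28 and 8.78 in myelinating oligodendrocytes and 3.97 and 7.70 in microglia. In neurons it was 2.21 and 4.84, a spread set by the Cltc values of the 2 libraries.

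Picalm, an adaptor that binds phosphoinositides and clathrin and takes part in setting vesicle size, was highest in microglia and endothelial cells. The microglia libraries held 199.6 and 129 FPKM and the endothelial libraries 115 and 116. The others ran from 36.8 FPKM in an astrocyte library to 93.1 FPKM in a newly formed oligodendrocyte library, with 49.6 and 49.8 in neurons and 58.6, 50.5 and 51.9 in whole cortex. Microglia exceeded the mean of the other purified types by 1.37 ± 0.19 on the log2 scale (SE; adjusted p = 2.32e-05).

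Microglia were called higher than 5 of the other 6 types, and the difference from endothelial cells was 0.47 ± 0.25 (adjusted p = 0.121). With all libraries scaled to a common sum of FPKM, the microglial difference from the mean was 0.82 and no longer called. Astrocytes lay 1.00 ± 0.19 below the mean of the others (adjusted p = 3.96e-04), just under the limit of 1 before rounding.

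Bin1, known also outside endocytosis for shaping membrane tubules, spanned a wide range. Microglia held 244 and 309 FPKM, myelinating oligodendrocytes 199.5 and 164, newly formed oligodendrocytes 147 and 137, and neurons 92.3 and 114. Whole cortex lay at 39.5, 41.2 and 38.5 FPKM and precursors at 35.1 and 33.0. Endothelial cells, at 13.1 and 13.4 FPKM, and astrocytes, at 7.46 and 8.28 FPKM, formed the lower end.

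Against the mean of the other purified types Bin1 was higher in microglia by 2.53 ± 0.13, in myelinating oligodendrocytes by 1.83 ± 0.13 and in newly formed oligodendrocytes by 1.43 ± 0.13 on the log2 scale (SE; highest adjusted p = 1.99e-07). It was lower in astrocytes (−3.26 ± 0.13) and in endothelial cells (−2.46 ± 0.13, adjusted p = 6.24e-10 or less in both). Neurons, at 0.88 ± 0.13 above the mean, fell short of the limit; without the first neuron library the difference was 1.04, and with a common sum of FPKM it was 1.302, both called. The high microglial level was almost wholly NM_001083334, and the neuronal level almost wholly NM_009668.

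Amph, whose protein joins clathrin and AP2 to dynamin, had a different pattern from Bin1 despite their shared domains. Neurons held 30.3 and 41.7 FPKM, whole cortex 28.9, 32.8 and 29.8, and the oligodendrocyte lineage between 19.5 and 28.6 FPKM in its 6 libraries. Astrocytes held 5.09 and 8.82 FPKM, microglia 1.09 and 1.52, and endothelial cells 0.686 and 0.507. Neurons, precursors, both later oligodendrocyte stages and whole cortex were each called higher than these 3 types, and no pair among those 5 groups was called.

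Neurons exceeded the mean of the other purified types by 2.06 ± 0.18, precursors by 1.43 ± 0.18, newly formed oligodendrocytes by 1.31 ± 0.18 and myelinating oligodendrocytes by 1.59 ± 0.18 on the log2 scale (SE; highest adjusted p = 1.92e-05). Microglia lay 2.61 ± 0.18 and endothelial cells 3.22 ± 0.18 below the mean (highest adjusted p = 1.78e-08). Microglia thus held 276 ± 46.2 FPKM of Bin1 beside 1.304 ± 0.304 of Amph (SD, n = 2).

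Dnm1, the dynamin of synaptic vesicle recycling, was the gene most set apart in neurons. Neurons held 128 and 153 FPKM, whole cortex 38.1, 40.6 and 34.0, precursors 23.8 and 29.1, newly formed oligodendrocytes 22.5 and 19.3, and myelinating oligodendrocytes 12.8 and 22.1. Microglia held 5.31 and 9.91 FPKM, endothelial cells 1.12 and 1.08, and astrocytes 0.652 and 0.990. Neurons were called higher than each of the other 7 groups, and no neuron library overlapped another group.

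The neuronal difference from the mean of the other purified types was 4.08 ± 0.20 on the log2 scale (SE; adjusted p = 3.91e-10). Precursors lay 1.32 ± 0.20 above the mean (adjusted p = 4.33e-05) but only 0.96 with scaling by the median of ratios, which ends the call. Astrocytes (−3.25 ± 0.20) and endothelial cells (−3.00 ± 0.20) lay below it (highest adjusted p = 1.04e-08). The higher myelinating library for Dnm1 was also the one with more neuron marker RNA (5.92% against 1.88% of the neuron level), and the precursor libraries held more of it still (7.61% and 9.66%). The part of that RNA in these Dnm1 levels was not tested.

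Dnm2, the dynamin of most tissues, ran the other way. Microglia held 64.5 and 67.7 FPKM, newly formed oligodendrocytes 48.8 and 55.1, myelinating oligodendrocytes 43.7 and 48.6, and endothelial cells 43.6 and 41.7. Astrocytes (22.3 and 19.7), precursors (20.2 and 22.0) and whole cortex (21.6, 21.01 and 20.6 FPKM) lay together, and neurons were lowest at 13.01 and 12.6 FPKM. Neurons differed from the mean of the other purified types by −1.50 ± 0.10 (SE; adjusted p = 1.36e-08), where 10.3% of all genes were called lower.

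Microglia lay 1.16 ± 0.10 above the mean for Dnm2 (adjusted p = 1.97e-07), or 0.62 and not called with a common sum of FPKM. Neurons were called lower than 4 of the other 6 purified types, and their differences from astrocytes (−0.67) and precursors (−0.68) stayed under the limit.

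Dnm3, found in neurons at postsynaptic sites, was highest in neurons and newly formed oligodendrocytes. Neurons held 21.4 and 28.1 FPKM, newly formed oligodendrocytes 22.3 and 18.1, precursors 13.9 and 11.7, and whole cortex 11.3, 11.1 and 11.6. Myelinating oligodendrocytes (7.16 and 8.67 FPKM) and endothelial cells (7.99 and 7.37 FPKM) held less. Astrocytes, at 0.346 and 0.463 FPKM, and microglia, at 0.133 and 0.122 FPKM, were near the lowest value listed.

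Dnm3 exceeded the mean of the other purified types by 2.15 ± 0.13 in neurons, by 1.83 ± 0.13 in newly formed oligodendrocytes and by 1.12 ± 0.13 in precursors (SE; highest adjusted p = 3.50e-06). The precursor difference was 0.81 with median-of-ratios scaling and 0.9997 without the first precursor library, neither called. Microglia lay 3.10 ± 0.13 and astrocytes 2.73 ± 0.13 below the mean (highest adjusted p = 3.02e-10). The neuronal and newly formed oligodendrocyte levels were not called different (0.27 ± 0.17, adjusted p = 0.178), though their isoforms differed by 73.6 points.

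As shares of the summed FPKM of the 3 dynamins, Dnm1 made up 78.9% ± 0.0602 in neurons, 43.7% ± 3.65 in precursors, 22.4% ± 2.24 in newly formed and 24.0% ± 5.49 in myelinating oligodendrocytes (SD, n = 2 each). Dnm2 made up 94.4% ± 1.84 in astrocytes, 89.7% ± 3.62 in microglia, 82.9% ± 0.319 in endothelial cells and 7.25% ± 1.05 in neurons. Dnm3 held between 11.1% and 21.7% in neurons, the lineage and endothelial cells, and 1.84% and 0.173% in astrocytes and microglia. Whole cortex had 53.6% ± 2.27 Dnm1, 30.1% ± 1.14 Dnm2 and 16.3% ± 1.18 Dnm3 (SD, n = 3).

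Counted by type, astrocytes had 0 of the 9 genes called higher than the mean of the other purified types and 5 lower, where 17.5% and 13.6% of all genes were called higher and lower. Microglia had 4 higher and 2 lower, with 15.2% and 28.1% of all genes. Neurons had 3 higher and 1 lower (18.9% and 10.3%), precursors 3 and 0 (16.3% and 2.3%), newly formed oligodendrocytes 3 and 0 (9.06% and 9.51%), myelinating oligodendrocytes 2 and 1 (6.07% and 31%) and endothelial cells 0 and 3 (18.5% and 18%). The median over the 9 genes was −1.63 in astrocytes, where the median over all genes was 0.02.

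These backgrounds depend on how libraries are scaled to each other. Of all called genes, 64.6% were called higher in neurons, 56.2% in astrocytes and 35.2% in microglia, and with a common sum of FPKM these shares were 79.4%, 71.7% and 21.2%. In the same order the medians over all genes moved from 0.10, 0.02 and −0.44 to 0.42, 0.31 and −0.72. With median-of-ratios scaling the share of higher calls moved from 87.6% to 73.6% in precursors and from 16.4% to 35.1% in myelinating oligodendrocytes, and the medians from 0.34 and −0.60 to 0.06 and −0.32.

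**Figure D4:**
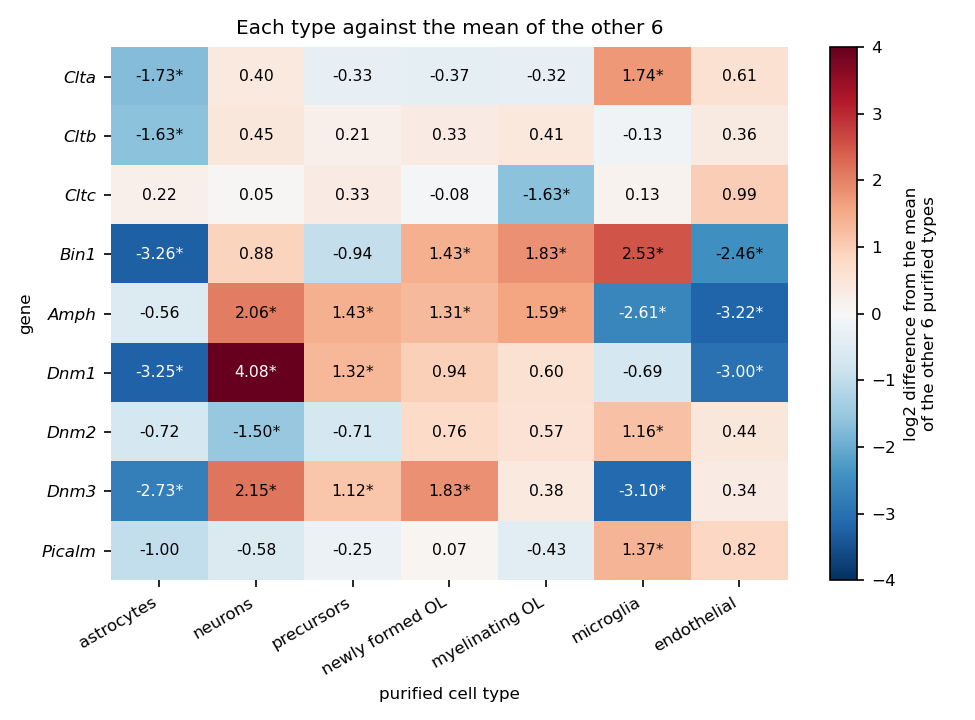
Log2 difference of each of the 7 purified types (x axis) from the mean of the other 6, for the 9 genes (y axis); colour gives the difference and an asterisk marks a call (OL, oligodendrocytes). Astrocytes hold 5 called values, all negative, and neurons the highest value, 4.08 for Dnm1.

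Along the oligodendrocyte lineage, Bin1 and Dnm2 rose from precursors to newly formed cells and Cltc and Dnm3 fell from there to myelinating cells. Bin1 rose by 2.03 ± 0.16 and Dnm2 by 1.26 ± 0.13 on the log2 scale (SE; adjusted p = 7.48e-08 and 1.36e-06), where 5.26% of all genes rose and 18.4% fell. Both genes were highest in microglia, and relative to their own type microglia markers had a median of 7.66% and 3.21% in precursors but at most 0.399% in newly formed cells. The part of microglial RNA in the levels of Bin1 and Dnm2 at this step was not tested. At the next step Cltc fell by 1.33 ± 0.34 and Dnm3 fell by 1.25 ± 0.17 (adjusted p = 0.00325 and 1.70e-05), where 2.14% of all genes rose and 20% fell. The median over all genes was −0.35 at the first step and −0.38 at the second, the latter moving to −0.02 with median-of-ratios scaling. With that scaling 38% of the called genes rose at the second step in place of 9.67%, and the falls of Cltc (−0.78) and Dnm3 (−0.73) were no longer called.

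The remaining 7 genes at each step were not called. Dnm1 differed by −0.33 ± 0.26 from precursors to newly formed cells and by −0.29 ± 0.26 from there to myelinating cells. Isoform use of Clta, Bin1 and Dnm3 was not called at either step (6.65% and 5.14% of genes called), with Bin1 NM_009668 at 12.3%, 11.2% and 11.3% in the 3 stages.

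Other genes of clathrin-mediated endocytosis, taken as 5 lists, were called in both directions in neurons. In the contrast of neurons with the mean of the other purified types, 18.9% of all genes were called higher and 10.3% lower. Of the 5 subunits of AP2, the adaptor of the plasma membrane, 1 was called higher, Ap2a2 (log2 difference 1.29 ± 0.16, 52.5 ± 3.81 FPKM in neurons), and the list's median was 0.75 against 0.10 over all genes. Of 6 tested AP1 subunits, from the adaptor of the trans-Golgi network, 1 was called higher, Ap1s2 (1.74 ± 0.22), which endothelial cells held at the same level (24.1 ± 4.75 and 24.4 ± 0.754 FPKM). The median of the AP1 list was 0.68. Most uncalled subunits of both adaptors were also higher, by 0.56 to 0.87, below the limit of 1 (highest adjusted p = 0.00324, limma). The rest, at 0.38 and 0.08, did not pass the test (adjusted p = 0.0619 and 0.712).

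Of 24 genes for coat assembly and cargo adaptors, 7 were called higher in neurons and 3 lower, with a median of 0.24. Snap91 (AP180), the neuronal relative of Picalm, was 3.66 higher on the log2 scale, at 79.7 ± 11.1 FPKM in neurons and 2.00 ± 0.259 in microglia (SD, n = 2). Sgip1, an endophilin-binding regulator, was 3.11 higher and Numbl, a Numb relative, 2.80 higher. Lower were Necap2 (−1.89), Dab2, a cargo adaptor (−1.87), and Hip1, which binds clathrin and actin (−1.03). The call for Hip1 was lost with a common sum of FPKM (−0.70), without the first neuron library (−0.67) and without the first microglia library (−0.997). The paired genes Picalm and Snap91 thus had their highest purified levels in different cells, microglia for Picalm and neurons for Snap91.

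Of 16 BAR domain genes, 3 were called higher and 5 lower, with a median of −0.48. The endophilin Sh3gl2, known from synapses, was 3.29 higher at 53.3 ± 2.99 FPKM in neurons, Pacsin1 (syndapin 1) was 3.21 higher and Fnbp1l 3.16 higher. The sorting nexins Snx9 and Snx33 were 1.88 and 1.74 lower, and Pacsin3 was 1.66 lower.

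Of 7 uncoating genes, 3 were called higher and 0 lower, with a median of −0.01. Dnajc6 (auxilin), which brings Hsc70 to the coat, was 3.59 higher at 36.05 ± 2.28 FPKM in neurons. The phosphoinositide phosphatases Ocrl and Synj1 (synaptojanin 1) were 1.54 and 1.45 higher.

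**Figure D5:**
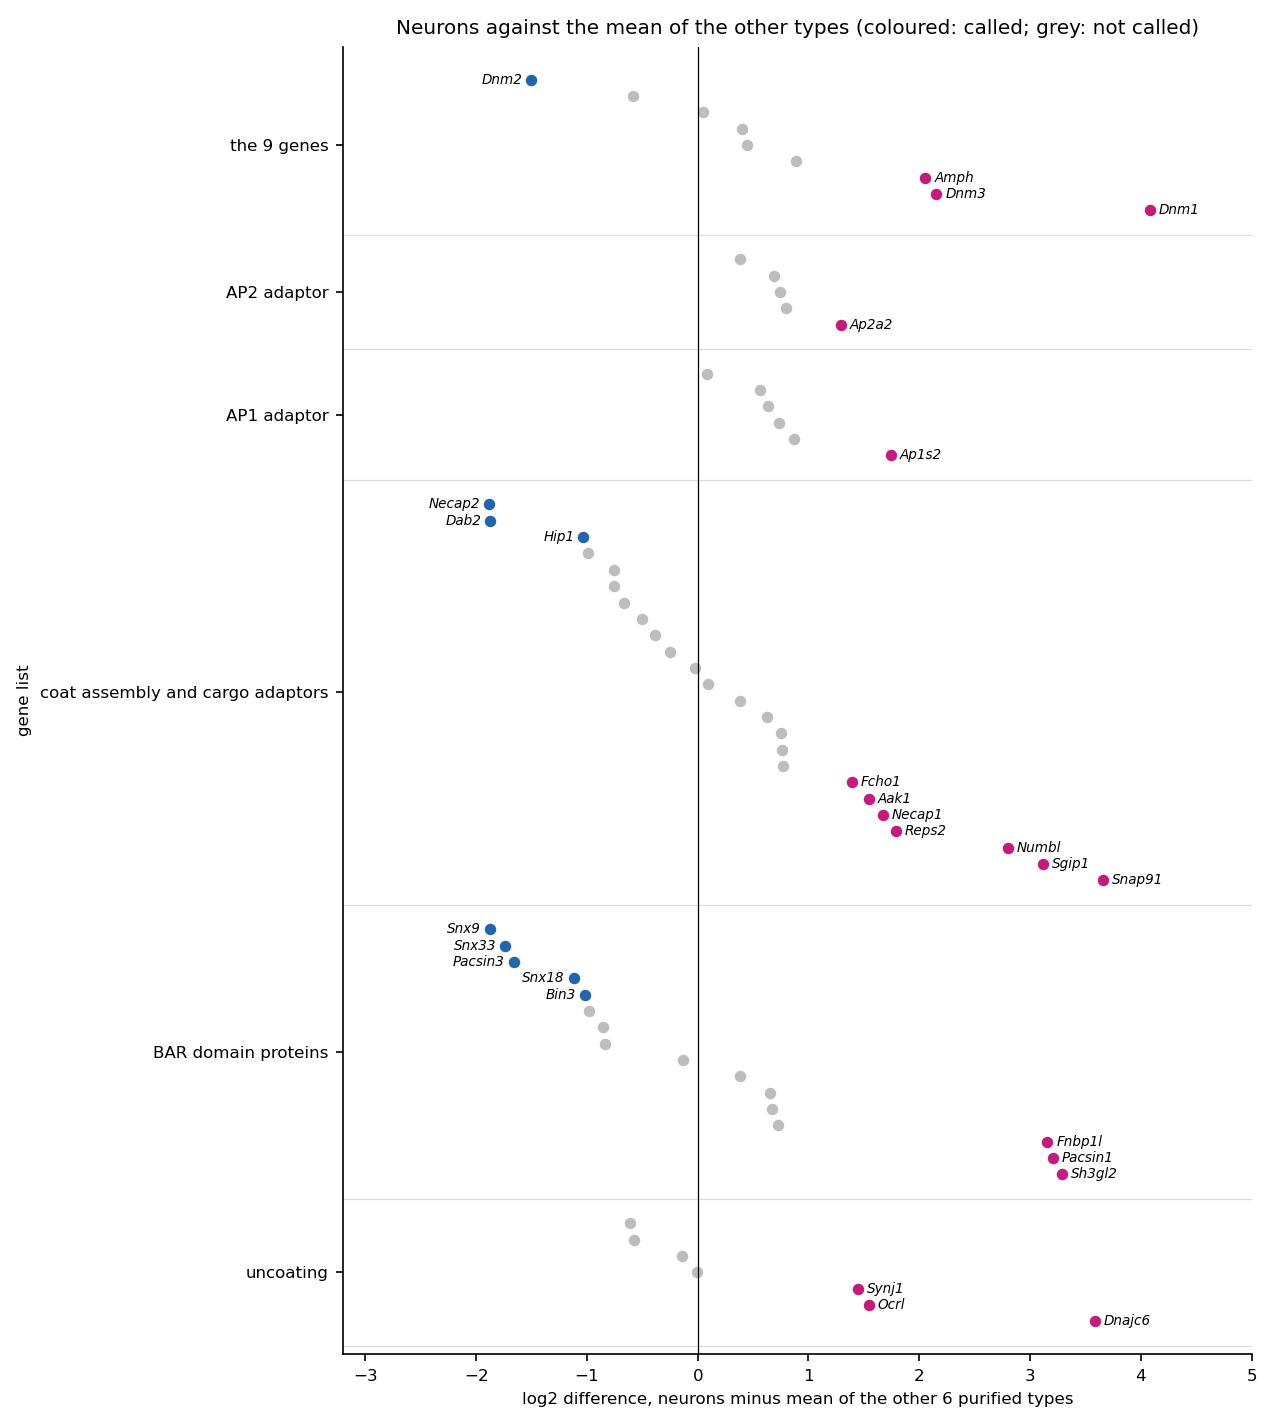
Log2 difference of neurons from the mean of the other 6 purified types (x axis) for the 9 genes and 5 lists of endocytic genes (y axis), 1 point per gene; pink and blue points were called higher and lower, and grey points were not called. Called genes lie on both sides in the coat and BAR lists, from Snap91 at 3.66 to Necap2 at −1.89.

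In the lineage, calls in both directions were found in the coat and cargo list at the first step, in the BAR list at both steps and in the uncoating list at the second. From precursors to newly formed oligodendrocytes, 2 of 24 coat and cargo genes rose (Eps15 by 2.16, Fcho1 by 1.27) and 6 fell, among them Dab2 (−2.18), Numb (−1.79) and Epn2 (−1.36), where 5.26% of all genes rose and 18.4% fell. Dab2 went from 22.3 and 12.1 FPKM to 3.07 and 2.68, while the summed microglia markers went from 530 and 249 FPKM to 28.4 and 27.9 and the summed fibroblast markers from 68.0 and 119 FPKM to 0.5 and 0.709. The part of these markers' cells in the falls was not tested. Of 16 BAR genes 2 rose, the endophilin Sh3gl3 by 2.61 (from 27.4 ± 7.09 to 170 ± 16.8 FPKM) and Fnbp1 by 2.24, and 5 fell, among them Fnbp1l (−1.94), Pacsin1 (−1.44) and Trip10 (−1.09). Synj2 rose by 1.84 among the uncoating genes, and no AP1 or AP2 subunit was called. The calls for Pacsin1 (−0.83) and Trip10 (−0.93) were lost without the second precursor library. That for Trip10 was also lost without the first newly formed oligodendrocyte library (−0.98) and with median-of-ratios scaling (−0.94).

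From newly formed to myelinating oligodendrocytes, 0 of 24 coat and cargo genes rose and 7 fell, where 2.14% of all genes rose and 20% fell. Among those that fell were Dab2 (−1.59), Necap1 (−1.41) and Aak1 (−1.35), and the AP1 subunit Ap1g1 fell by 1.61. The BAR genes Pacsin1 and Fnbp1 rose by 1.501 and 1.21, while Fnbp1l (−1.61) and Snx18 (−1.36) fell. Among the uncoating genes Synj2 rose by 1.22 and Inpp5b (−1.20), Synj1 (−1.14) and Ocrl (−1.12) fell. With median-of-ratios scaling the falls of Necap1 (−0.89), Snx18 (−0.85), Inpp5b (−0.73), Synj1 (−0.68) and Ocrl (−0.78) were no longer called. With a common sum of FPKM the rise of Fnbp1 (0.98) was no longer called.

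Calls at this step also ended when single libraries were left out. Without the second newly formed library Fnbp1 was at 0.66 and Synj2 at 0.71, and without the second myelinating library Pacsin1 was at 0.91. Without the first newly formed library Synj1 was at −0.97. Without the first myelinating library Necap1 was at −0.97, Synj1 at −0.92 and Ocrl at −0.92.

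The genes whose log2 levels followed each of the 9 most closely over the 17 libraries were sought among 8026 genes with a mean of at least 5 FPKM. The libraries include replicates of the same 8 groups, so the correlations are descriptive. For Clta these were Atp6v1f, a subunit of the vacuolar proton pump (Pearson r = 0.982), and Ascc1 (0.975). Atp6v1f stood at 128 ± 1.46 FPKM in microglia and 18.2 ± 0.656 in astrocytes (SD, n = 2), the highest and lowest types for Clta as well.

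For Cltb they were Rab5b, a GTPase of early endosomes (r = 0.962), and the tubulin cofactor Tbcb (0.951), both lowest in astrocytes at 11.1 ± 0.360 and 14.6 ± 0.506 FPKM. For Cltc they were Ddx21 (0.934) and Sin3a (0.933), and for Bin1 the phosphatase Dusp7 (0.960) and Fgd3 (0.956). Amph was followed most closely by the kinesin Kif3c (0.979) and Fsd1 (0.969), and Dnm1 by the calmodulin-binding Pcp4 (0.971) and the protein kinase A subunit Prkaca (0.967). Pcp4 held 304 ± 57.6 FPKM in neurons and 0.878 ± 0.551 in astrocytes (SD, n = 2).

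Dnm2 was followed by Tcfeb, a transcription factor of lysosomal genes (r = 0.979), and Cd82 (0.959), and Dnm3 by Ndfip1 (0.951) and Eid1 (0.939). Picalm had the weakest partners, Serinc3 (0.918) and Sgk1 (0.913), both highest in microglia at 576 ± 96.2 and 1042 ± 303 FPKM (SD, n = 2).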

How the data were processed

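PolyA RNA of 7 purified cell types (2 libraries each) and whole cortex (3) was sequenced paired-end from TruSeq libraries, per the labels' protocols. The submitters' processing notes name Cufflinks 1.3.0, TopHat 1.3.3, Bowtie 0.12.7, CASAVA and the build mm9. The authors deposited FPKM for each gene symbol and RefSeq isoform, bounded below at 0.1. FPKM is scaled to each library's total, so it is relative, and isoform FPKM is an estimate that depends on the isoforms listed. Gene values equalled the isoform sums within 0.001 FPKM for 98.0% of the values of these 9 genes. Low values gave no whole-read steps, so depth is unknown and no counting interval is given. At most 13 genes shared a ratio window, in whole cortex, against 6 after shuffling there. Among the purified types the most was 9, in endothelial cells, against 7 after shuffling. Replicates correlated at r = 0.977 to 0.998 and none were copies.

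Levels were tested on log2(FPKM + 1) with limma 3.58.1 in R 4.3.3, 8 groups in 1 model with a trended prior variance, for genes with at least 1 FPKM in at least 2 libraries (14011). The contrasts were the 28 pairs and 7 types against the mean of the other 6, two-sided, with Benjamini-Hochberg adjustment over genes and contrasts together. Isoform use was tested with diffSplice on 5494 isoforms of 2226 genes with shares of at least 5%. The contrast of neurons with the mean of the other types was tried on simulated data, for levels and for genes with 2 isoforms. The pairs, the F test and the blocks were not. Named are the 9 genes and their isoforms, up to 3 called genes per list and direction with the largest difference, and per gene the 2 most correlated genes with a mean of at least 5 FPKM. 1 gene of the coat and cargo list is not reported here. The genes and lists were chosen with earlier results of these data known. Isoforms were matched to GENCODE M21 (14 of 14). Alternatives were the pseudocount, filters, scaling, limits, the replicate number as a block (in all groups or, added after seeing the data, in 4 types) and leaving out each library. Sequence from Bin1 is not shown here.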

Additional observations from a re-analysis of the deposited data

How the results depend on the processing

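The count of called levels among the 252 comparisons of pairs was 126, and that among the 63 comparisons of a type with the mean was 27. Without single libraries they ranged from 124 to 130 and from 27 to 30. A limit of 2 on the log2 difference left 60 and 12. The isoform calls, 34 between pairs and 9 against the mean, ranged from 34 to 37 and from 8 to 10 without single libraries, and from 28 to 41 and from 8 to 13 under the other settings. The calls against the mean were those of neurons for Clta, Bin1 and Dnm3, of microglia for Clta and Bin1, of endothelial cells for Clta, Bin1 and Dnm3, and of myelinating oligodendrocytes for Dnm3. Outside neurons, the mean of the other types in these calls included the neurons. For Dnm3 the tests behind the calls also included astrocytes and microglia, which the share differences left out. The replicate numbers did not pair the libraries of all groups (correlations of deviations from −0.246 to 0.726, over 0.1 in 7 of 28 pairs of groups), and a fit with the replicate number as a block gave 126, 27, 34 and 9 calls. Same-numbered libraries of precursors, newly formed oligodendrocytes, microglia and endothelial cells did deviate together (0.148 to 0.726, highest between the first 2), a hint from the data and not from the labels. A block in these 4 types, chosen after seeing the data, gave 126, 27, 35 and 9 calls, the added one being Dnm3 isoform use in precursors against myelinating oligodendrocytes, and changed no other call among the results given. That block left out whole cortex, which deviated with microglia (0.230). It also left out neurons, whose deviations ran opposite to those of same-numbered precursors, newly formed oligodendrocytes and microglia (−0.238, −0.212 and −0.246). Of 110 single results over 27 gene and 25 isoform settings, 2818 values kept their direction and call, 77 lost the call, 4 gained it and 28 turned direction. Those that turned had not been called. With median-of-ratios scaling Cltc in neurons turned to −0.052, and by step Clta (0.18) and Amph (0.10) turned from precursors to newly formed oligodendrocytes, and Dnm1 (0.26), Dnm2 (0.40) and Picalm (0.14) from there to myelinating ones. With a common sum of FPKM Cltb turned to −0.021 at the first step, and Clta (−0.18) and Cltb (−0.16) at the second. Without single libraries Cltc in neurons ranged from −0.51 to 0.61, the first step from −0.28 to 0.21 for Clta, −0.28 to 0.49 for Cltb, −0.33 to 0.12 for Amph and −0.068 to 0.61 for Picalm, and the second from −0.15 to 0.24 for Clta, −0.24 to 0.37 for Cltb and −0.66 to 0.085 for Dnm1. In the same way the share of Dnm3 NM_172646 ranged from −4.97 to 24.3 points at the first step and −0.30 to 22.9 at the second, and that of Bin1 NM_009668 from −0.74 to 0.93 at the second. The call for Dnm3 at the first step passed without the second precursor library (24.3 points) or the first newly formed one (21.3). The share differences of microglia (Clta, 19.6 points without the first microglia library) and endothelial cells (Clta 19.6 without the second, Bin1 −19.0 without the first endothelial library) lost their call by a narrow margin. The causes were not tested. With 2 libraries per type and unknown depth, levels near 0.1 FPKM, as for Dnm3 in microglia, carry an unknown counting error.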
